A study of Mus musculus with 9 samples.

Results

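Endothelial cells line blood vessels, and 10 genes that mark them were followed in cultured fetal mouse ovaries: Pecam1, Emcn, Kdr, Cdh5, Tek, Tie1, Flt1, Eng, Esam and Cldn5. They were chosen by gene symbol, as junction, receptor and surface genes of endothelium, and all 10 were found among the 23420 genes of each count table. All 10 also passed the filter on low counts, which left 16360 genes. The ovaries came from wild-type CD1 embryos on embryonic day 16 and were cultured for 24 hours in phenol red-free medium. The 3 groups, of 3 libraries each, were given vehicle, 50 ng/ml of recombinant human BMP2 (bone morphogenetic protein 2), or 3.67 µM of estradiol-17β (E2), an oestrogen. Whole ovaries were sequenced. In all that follows, a change in the number of endothelial cells, in RNA per endothelial cell or in RNA from other cells cannot be told apart.

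Endothelial cells hold to each other through adherens junctions built on VE-cadherin (Cdh5) and tight junctions built on claudin 5 (Cldn5), with PECAM1 and ESAM also at the cell border. Vessel growth is driven by VEGFA, which signals mainly through KDR (VEGFR2), while FLT1 (VEGFR1) binds VEGFA tightly and limits what reaches KDR. The angiopoietins act on TEK (TIE2), for which TIE1 is a partner receptor, and ANGPT1 steadies vessels while ANGPT2 can oppose it. Endoglin (Eng) is a co-receptor for ligands of the TGFβ and BMP family. In the ovary, vessels enter during fetal life and later feed the growing follicles.

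The total of gene counts ran from 30418674 to 34320077 per library. Whether libraries of the same group came from separate cultures or animals is not stated in the labels. The p-values therefore reflect the spread among these 9 libraries alone, and that spread may be technical. Values below are CPM, the counts scaled to a common library total after adjusting libraries by TMM (trimmed mean of M-values) factors, with the SD over 3 libraries. Differences are edgeR quasi-likelihood log2 fold changes with standard errors, and a gene was called where its Benjamini-Hochberg adjusted p over all 16360 genes was under 0.05. Markers that belong to the tissue label were present. The 6 germ cell markers examined summed to 1040 to 1110 CPM with vehicle and the 6 pregranulosa markers to 1700 to 1770 CPM. Sycp3 held 281 to 298 CPM of the germ cell sum, and 52.2% of its exon bases are shared with Chpt1 on the other strand. Kitl alone held 949 to 1010 CPM of the pregranulosa sum, and Foxl2 55.7 to 57.9 CPM.

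In GENCODE vM21 on GRCm38, Kdr (chr5:75932827-75978458) and Flt1 (chr5:147561604-147726011) lie on the same chromosome, and so do Tek (chr4:94739289-94874976) and Tie1 (chr4:118471191-118490061). The others are Pecam1 at chr11:106654217-106750628, Emcn at chr3:137341067-137432185, Cdh5 at chr8:104101625-104144511, Eng at chr2:32646595-32682669, Esam at chr9:37528078-37538319 and Cldn5 at chr16:18776847-18778262.

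Promoter sequences of 7 of the 10 genes were found in RefSeq (GRCm38.p6), and 3 are shown because these genes differ most in what follows. Kdr fell with E2, its relative Flt1 did not pass, and Emcn had the largest rise of the 10. Each run is the 250 bases before the annotated start, 5′ to 3′ on the gene's strand. Capitals mark the core CGGAAG or AGGAAG, on either strand, that transcription factors of the ETS family bind and that is common at endothelial genes.
Kdr, chr5:75978456-75978705, minus strand: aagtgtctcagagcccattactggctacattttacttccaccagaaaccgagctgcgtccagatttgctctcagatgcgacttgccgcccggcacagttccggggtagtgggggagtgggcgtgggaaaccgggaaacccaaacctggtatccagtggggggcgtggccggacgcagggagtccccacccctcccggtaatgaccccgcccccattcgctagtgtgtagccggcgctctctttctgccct
Flt1, chr5:147726012-147726261, minus strand: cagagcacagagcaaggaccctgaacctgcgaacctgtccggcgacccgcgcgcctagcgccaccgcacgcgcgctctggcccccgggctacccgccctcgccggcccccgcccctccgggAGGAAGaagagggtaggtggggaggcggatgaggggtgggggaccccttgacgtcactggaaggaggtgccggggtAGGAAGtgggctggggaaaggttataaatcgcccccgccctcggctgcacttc
Emcn, chr3:137340828-137341077, plus strand: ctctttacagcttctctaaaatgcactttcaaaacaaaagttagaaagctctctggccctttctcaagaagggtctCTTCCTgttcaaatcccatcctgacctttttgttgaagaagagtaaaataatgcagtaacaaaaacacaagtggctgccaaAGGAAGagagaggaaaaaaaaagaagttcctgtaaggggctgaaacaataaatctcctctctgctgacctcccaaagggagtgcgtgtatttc

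In these windows, 4 of the 7 promoters held CGGAAG or AGGAAG (Emcn, Tie1, Flt1 and Eng), against 39.2% of 32851 mouse promoter windows of the same length. Shorter or variant ETS sites were not searched, so a run without capitals, such as that of Kdr, may hold them. The core GGTCA of the oestrogen response element, on either strand, was found in 3 of the 7 (Emcn, Kdr and Tek), against 35.2% of all windows. The BMP-SMAD element GGCGCC, which reads the same on both strands, occurred in 0 of the 7 and in 9.59% of all. These matches describe letters in a window only.

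Levels per exon length were compared first, since raw counts favour long genes. On the scale of CPM per kilobase of GENCODE exon, Kdr was the most abundant of the 10 with vehicle at 12.2 ± 0.120 (SD, n = 3), followed by Cdh5 at 7.32 ± 0.424 and Pecam1 at 6.37 ± 0.0745. Cldn5 at 5.25 ± 0.546 and Esam at 4.68 ± 0.182 came next, with libraries that overlap. Tie1 (2.41 ± 0.133) and Eng (2.23 ± 0.116) overlapped each other, as did Emcn (1.91 ± 0.172) and Tek (1.79 ± 0.0905). Flt1 lay far below the rest at 0.295 ± 0.0250, on an exon length of 13.5 kb that unites all its annotated transcripts, short soluble forms included. Kdr stayed the highest of the 10 with E2 (9.74 ± 0.343), although its lead over Cdh5 (8.46 ± 0.0888) narrowed.

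**Figure D1:**
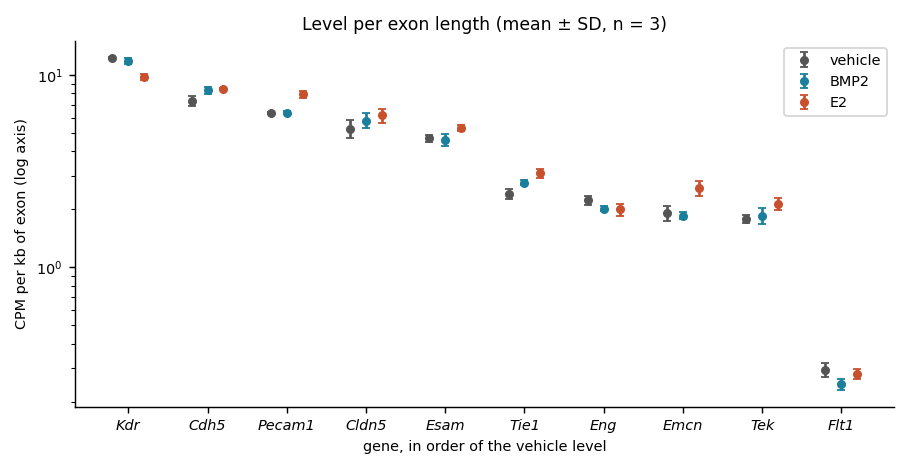
Level of each gene per kilobase of exon (log axis, mean ± SD of 3 libraries) with vehicle, BMP2 and E2, in the order of the vehicle level. Kdr leads in all groups, from 12.2 with vehicle to 9.74 with E2, and Flt1 is lowest at 0.295 with vehicle.

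The comparison of E2 with vehicle asks what the oestrogen did to these transcripts in a day. Of the 10 genes, 7 were higher with E2 (Pecam1, Emcn, Cdh5, Tek, Tie1, Esam and Cldn5), 1 was lower (Kdr) and 2 did not pass (Flt1 and Eng). Over all genes tested, 32.3% were called, 15.8% higher and 16.5% lower. The 10 genes were chosen with earlier results of these data known, so such shares describe them only. The median log2 fold change of the 10 was 0.22, beside -0.00255 over all genes. Libraries did not overlap for 7 of the 10, 6 of them higher and Kdr lower, beside 41.2% of all genes (20.4% higher and 20.9% lower). No change among the 10 exceeded 1.35-fold.

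The junction genes all moved upward. Pecam1, an adhesion molecule of endothelium, platelets and some leukocytes, stood at 39.2, 40.1 and 39.6 CPM with vehicle and at 49.7, 46.9 and 51.2 CPM with E2. The E2 libraries all lay above the vehicle libraries, and the gene was 1.24-fold higher (a log2 change of 0.31 ± 0.040 SE, adjusted p = 1.8e-11). Cdh5, which encodes VE-cadherin and is the most endothelial-restricted of the junction genes, had 28.8, 32.3 and 31.2 CPM with vehicle and 35.1, 35.8 and 35.8 CPM with E2. Its groups did not overlap either, with a 1.16-fold rise (0.21 ± 0.046, adjusted p = 6.3e-05).

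Esam, an immunoglobulin-family adhesion molecule of endothelial tight junctions, rose 1.13-fold from 13.4 ± 0.523 to 15.2 ± 0.490 CPM (log2 fold change 0.18 ± 0.067 SE, adjusted p = 0.0305). Cldn5, the tight junction claudin of endothelium, rose 1.17-fold from 7.44 ± 0.773 to 8.70 ± 0.712 CPM (0.23 ± 0.088, adjusted p = 0.0349). Vehicle replicate 2 (8.27 CPM) lay above E2 replicate 3 (7.93 CPM), so its groups overlapped. Both calls were close to the threshold. Esam was lost with DESeq2 (adjusted p = 0.0964) and without vehicle replicate 2 (0.118) or 3 (0.0569) or E2 replicate 1 (0.115) or 3 (0.0562). Cldn5 was lost with DESeq2 (0.129) and without vehicle replicate 1 (0.098) or 3 (0.204) or E2 replicate 1 (0.0846) or 2 (0.193).

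Emcn, a sialomucin of venous and capillary endothelium, showed the largest rise of the 10. Its libraries held 11.3, 10.3 and 9.39 CPM with vehicle and 12.6, 14.4 and 14.9 CPM with E2, all above vehicle. The difference was 1.35-fold (log2 fold change 0.44 ± 0.074 SE, adjusted p = 3.1e-07).

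Both TIE receptors rose. Tie1 had 11.1, 12.4 and 12 CPM with vehicle and 14.2, 15.8 and 15.5 CPM with E2, with no overlap, a 1.28-fold rise (log2 fold change 0.36 ± 0.069 SE, adjusted p = 5.0e-06). Tek, the angiopoietin receptor itself, had 7.95, 8.62 and 8.75 CPM with vehicle and 9.43, 10 and 10.9 CPM with E2, also without overlap. It was 1.2-fold higher (0.26 ± 0.082, adjusted p = 0.0077), a call that ended without vehicle replicate 1 (adjusted p = 0.0651) or E2 replicate 3 (0.0831). The log2 ratio of Tek to Tie1 counts was -0.49 ± 0.032 with vehicle and -0.59 ± 0.074 with E2, a difference of -0.10 (exact permutation test, two-sided, p = 0.2, where the smallest p that 3 against 3 allows is 0.1).

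Of the VEGF receptors, Kdr fell and Flt1 did not pass. Kdr had 110, 111 and 109 CPM with vehicle and 85.0, 87.6 and 91.2 CPM with E2, so every E2 library lay well under every vehicle library. It was 1.25-fold lower (a log2 change of -0.32 ± 0.029 SE, adjusted p = 1.5e-19), the smallest p of the 10, and under all 13 alternatives its log2 fold change ran from -0.36 to -0.30. Flt1 had 3.6, 4.21 and 4.14 CPM with vehicle and 3.96, 3.56 and 3.89 CPM with E2. These values overlapped (log2 fold change -0.07 ± 0.12 SE, 95% interval -0.31 to 0.18, adjusted p = 0.737), and the interval reaches nearly to the fall of Kdr. The log2 ratio of Kdr to Flt1 counts, which does not depend on library scaling, was 4.94, 4.72 and 4.72 with vehicle and 4.42, 4.62 and 4.55 with E2. Vehicle was higher in every library, and the mean difference was -0.26 (exact permutation test, two-sided, p = 0.1, the smallest possible, and 0.3 when adjusted over the 6 ratio tests).

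Eng, the TGFβ family co-receptor, did not pass. It had 8.60, 9.53 and 8.99 CPM with vehicle and 7.62, 7.94 and 8.72 CPM with E2 (log2 fold change -0.16 ± 0.084 SE, 95% interval -0.32 to 0.01, adjusted p = 0.149). The groups overlapped through E2 replicate 3. In GENCODE vM21, 1.51% of the exon bases of Eng lie in an exon of the neighbouring gene Fpgs on the other strand, and the other 9 genes share none.

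Kdr is the most abundant of the 10, so it weighs most in their sum. The 10 genes together summed to 242 to 250 CPM with vehicle and 242 to 255 CPM with E2, ranges that overlap. Without Kdr, the other 9 summed to 132 to 139 CPM with vehicle and 157 to 164 CPM with E2. Across the 9 libraries, Kdr ran against the mean scaled profile of the other 9 genes (Pearson r = -0.87), Eng leaned the same way (r = -0.35), and Flt1 was unrelated (r = 0.081). Pecam1 followed the others most closely (r = 0.87), then Emcn (0.77), Tie1 (0.74) and Tek (0.72). These correlations rest on 9 libraries that share 3 treatments and describe them only.

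**Figure D2:**
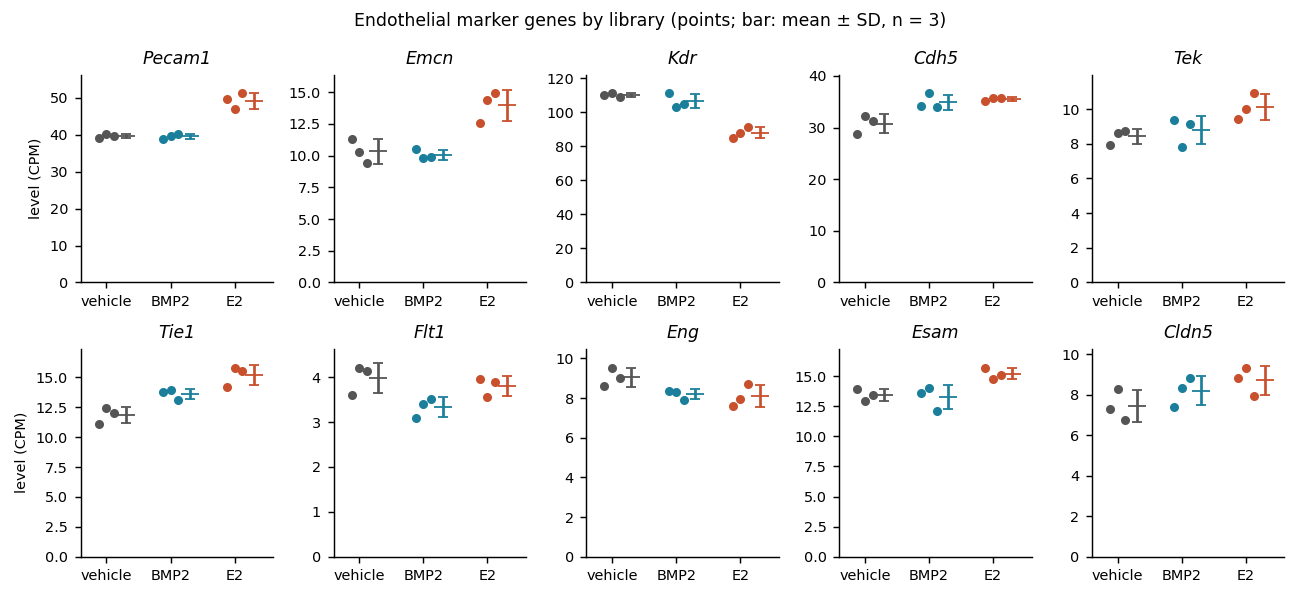
Level of each of the 10 genes (CPM, axes from 0) in every library with vehicle, BMP2 and E2, with the mean and SD beside the points. Kdr sits at 85.0 to 91.2 CPM with E2 and at 109 to 111 CPM with vehicle, while Pecam1 and Emcn are higher with E2 in all 3 libraries.

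BMP2 set against vehicle asks whether a BMP ligand alters these genes. Cdh5 and Tie1 were higher, 0 of the 10 were lower and 8 did not pass, so 20% were called beside 13.7% of all genes (6.84% higher and 6.85% lower). The median of the 10 was -0.015, beside -0.00153 for all genes.

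Cdh5 reached 34.2, 36.6 and 34.0 CPM with BMP2, above all vehicle libraries, and was 1.14-fold higher (a log2 change of 0.19 ± 0.045 SE, adjusted p = 0.00129). Tie1 reached 13.8, 13.9 and 13.1 CPM, also above all vehicle libraries, and was 1.15-fold higher (0.20 ± 0.069, adjusted p = 0.0362). Vehicle replicate 1 was the lowest library for both genes, and without it neither passed (adjusted p = 0.0597 for Cdh5 and 0.219 for Tie1). The call of Tie1 also ended with DESeq2 (0.121) and without BMP2 replicate 1 (0.114), BMP2 replicate 2 (0.113) or vehicle replicate 3 (0.0514), and with trends on GC content and length removed (0.0535).

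The VEGF receptors and Eng did not pass with BMP2. Kdr had 111, 103 and 105 CPM (log2 fold change -0.05 ± 0.028 SE, 95% interval -0.11 to 0.00, adjusted p = 0.224), and BMP2 replicate 1 lay among the vehicle libraries. Flt1 had 3.10, 3.40 and 3.52 CPM, each below every vehicle library, yet at this low level the difference did not pass (-0.25 ± 0.12, 95% interval -0.50 to -0.01, adjusted p = 0.181). Eng had 8.38, 8.29 and 7.90 CPM, again below every vehicle library (-0.14 ± 0.082, adjusted p = 0.281). Groups that do not overlap occur in 28.0% of all genes tested in this comparison (14.1% higher and 14.0% lower), and in 4 of these 10, 2 in each direction.

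Pecam1 was the closest match between the groups, with 38.8, 39.6 and 40.3 CPM with BMP2 against 39.2 to 40.1 with vehicle (95% interval of the log2 fold change -0.08 to 0.08, adjusted p = 0.983). Emcn (-0.04 ± 0.077, adjusted p = 0.802), Esam (-0.03 ± 0.068, 0.854), Tek (0.06 ± 0.083, 0.728) and Cldn5 (0.14 ± 0.087, 0.314) overlapped vehicle too.

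Setting BMP2 directly against E2 tests where the 2 treatments differ. Kdr was 1.21-fold higher with BMP2 than with E2 (log2 fold change 0.27 ± 0.029 SE, adjusted p = 4.7e-15). Pecam1 (-0.32 ± 0.040, adjusted p = 1.1e-11), Emcn (-0.48 ± 0.074, 2.4e-08), Esam (-0.20 ± 0.067, 0.0119) and Tek (-0.20 ± 0.081, 0.0449) were lower with BMP2. In all, 1 of the 10 was higher, 4 were lower and 5 did not pass, beside 28.2% of all genes called, 14.1% higher and 14.0% lower. The calls of Esam and Tek ended with DESeq2 (adjusted p = 0.0575 and 0.159) and when single libraries were left out. For Esam these were BMP2 replicate 3 (0.150) and E2 replicate 1 (0.0630), and for Tek BMP2 replicate 2 (0.306), E2 replicate 2 (0.0768) and E2 replicate 3 (0.248). The call of Tek also ended with no filter on low counts (0.0527) and with the GC and length trends removed (0.0715). Libraries did not overlap for 7 of the 10, 1 higher and 6 lower, beside 39.6% of all genes (19.8% higher and 19.8% lower). Cdh5 and Tie1 were each higher than vehicle with both treatments. Between the treatments, Cdh5 did not differ detectably (-0.03 ± 0.044, 95% interval -0.11 to 0.06, adjusted p = 0.722), and Tie1 just missed (-0.16 ± 0.066, adjusted p = 0.0547). Tie1 passed under 4 of the 13 alternatives: without E2 replicate 1 (adjusted p = 0.0254), with the GC and length trends removed (0.0107), among genes with a mean of at least 1 CPM (0.0496) and with only these 2 groups fitted (0.049). The comparisons with vehicle share the vehicle libraries, so their values are not independent.

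**Figure D3:**
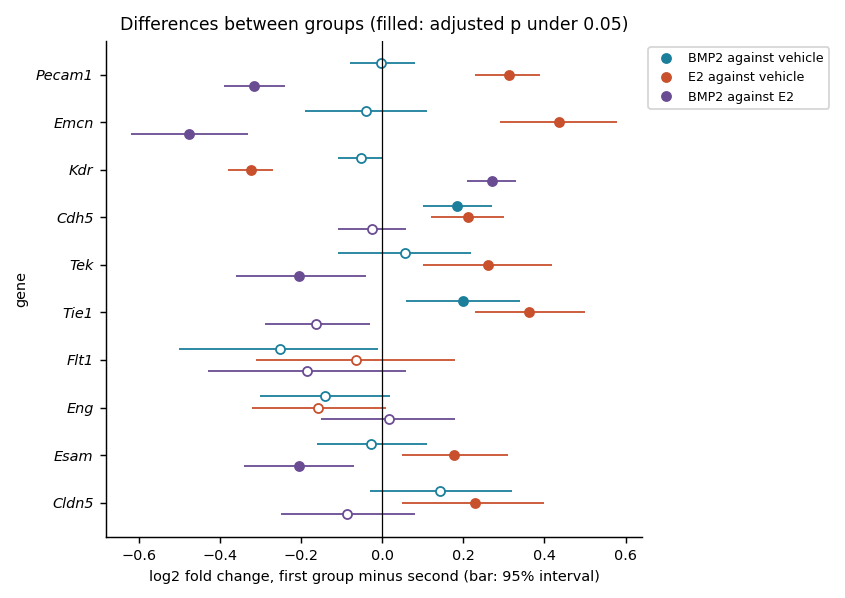
Log2 fold change of each gene (x axis, first group minus second, with the 95% interval) in the 3 comparisons, filled where the adjusted p was under 0.05. With E2, 7 genes lie right of 0 and Kdr lies at -0.32, while with BMP2 only Cdh5 and Tie1 are filled.

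Of 8 VEGF and angiopoietin genes, which encode the ligands of these receptors, 3 rose with E2, 0 fell and 5 did not pass (37.5% called beside 32.3% of all genes). Angpt2, which lies on chromosome 8 from 18690263 to 18741562, had 18.4, 18.1 and 19.5 CPM with vehicle and 53.5, 52.5 and 52.7 CPM with E2, a 2.84-fold rise (log2 fold change 1.5 ± 0.046 SE, adjusted p = 4.8e-64). Angpt1, on chromosome 15 from 42424723 to 42676977, had 5.50, 5.25 and 7.01 CPM with vehicle and 15.9, 17.0 and 19.2 CPM with E2, 2.94-fold higher (1.55 ± 0.082, adjusted p = 8.1e-37). The libraries lay far apart for both angiopoietins. Of the exon bases of Angpt1, 14.2% are shared with Gm17473 on the opposite strand. Vegfa went from 64.4, 65.3 and 63.0 CPM to 87.3, 86.3 and 85.7 CPM, 1.35-fold higher (0.43 ± 0.032, adjusted p = 2.0e-25), in the same libraries in which its receptor Kdr was lower.

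With BMP2, 1 of the 8 ligands rose (12.5% called beside 13.7% of all genes). Angpt2 was 1.16-fold higher at 21.4, 22.0 and 21.6 CPM (log2 fold change 0.22 ± 0.053 SE, adjusted p = 0.00121). Angpt1 (0.04 ± 0.097, adjusted p = 0.865) and Vegfa (0.04 ± 0.032, adjusted p = 0.530) did not pass. Against E2, 3 of the 8 were lower with BMP2, with log2 fold changes of -1.29 for Angpt2, -1.52 for Angpt1 and -0.39 for Vegfa (adjusted p = 8.5e-58, 1.7e-36 and 6.9e-23). The other 5 did not pass (37.5% called beside 28.2% of all genes).

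**Figure D4:**
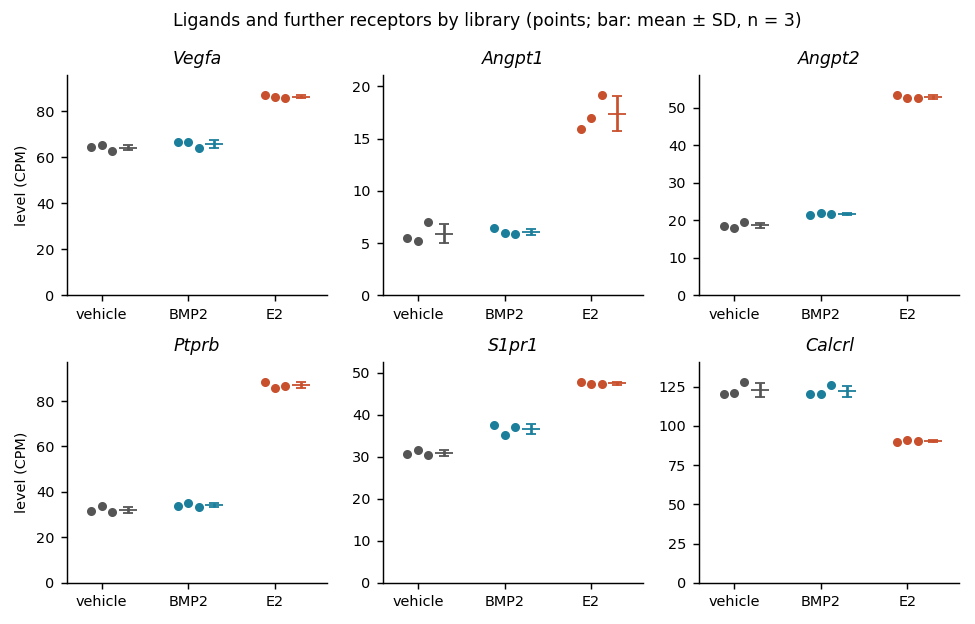
Level (CPM, axes from 0) of the ligand genes Vegfa, Angpt1 and Angpt2 and of Ptprb, S1pr1 and Calcrl in every library, with the mean and SD. Angpt2 lies at 52.5 to 53.5 CPM and Ptprb at 85.8 to 88.4 CPM with E2, far above the other groups, and Calcrl is the lower one at 89.8 to 91.2 CPM.

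Among 14 further endothelial receptors and their partners, 6 rose with E2, 3 fell and 5 did not pass (64.3% called beside 32.3% of all genes). Ptprb, the phosphatase VE-PTP that acts on TEK and on VE-cadherin, rose 2.71-fold from 31.5, 33.6 and 31.2 CPM to 88.4, 85.8 and 86.6 CPM (log2 fold change 1.44 ± 0.037 SE, adjusted p = 2.0e-73). S1pr1, the sphingosine 1-phosphate receptor, rose 1.54-fold from 30.9 ± 0.641 to 47.5 ± 0.284 CPM (adjusted p = 1.6e-28), and Robo4 1.57-fold from 12 ± 0.532 to 18.9 ± 1.54 CPM (adjusted p = 3.0e-16). Calcrl, the receptor subunit for adrenomedullin, fell from 123 ± 4.51 to 90.4 ± 0.712 CPM (log2 fold change -0.45 ± 0.028, adjusted p = 2.0e-31). The other 2 that fell are named after their values were seen. They were Ramp2, the partner subunit of Calcrl (-0.22 ± 0.069, adjusted p = 0.00863), and Acvrl1, the ALK1 receptor with which endoglin works (-0.31 ± 0.055, adjusted p = 1.2e-06). Ramp2 lost its call without E2 replicate 2 (0.106) and with the GC and length trends removed (0.0535), and 33.4% of its exon bases are shared with Vps25.

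With BMP2, 3 of these 14 rose and 1 fell (28.6% called beside 13.7% of all genes). S1pr1 (log2 fold change 0.25 ± 0.043 SE, adjusted p = 3.0e-06), Plxnd1, a semaphorin receptor (0.20 ± 0.040, 3.3e-05), and Robo4 (0.26 ± 0.068, 0.00307) were higher. Bmpr2, a type II BMP receptor, was lower (-0.10 ± 0.032, adjusted p = 0.0192), a call lost with DESeq2 (0.0662), without BMP2 replicate 2 (0.149) and without vehicle replicates 1 (0.0503) or 2 (0.120).

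Of 20 other endothelial surface, junction and secreted genes, 8 rose with E2, 1 fell and 11 did not pass (45% called beside 32.3% of all genes). Cd34, a sialomucin of endothelium and blood progenitors, rose from 43.2 ± 2.04 to 54.7 ± 2.58 CPM (log2 fold change 0.34 ± 0.038 SE, adjusted p = 5.8e-14) and Cd93 from 32.0 ± 0.859 to 41.4 ± 1.01 CPM (0.37 ± 0.043, 2.7e-13). Myct1 was 1.54-fold higher at a low level (4.16 ± 0.201 against 2.70 ± 0.317 CPM, adjusted p = 6.3e-05). Podxl, at 699 ± 6.33 CPM the most abundant of the 20 before correction for length and also made outside endothelium, fell slightly (-0.11 ± 0.017, adjusted p = 2.9e-08). With BMP2, 4 rose and 2 fell (30% called beside 13.7% of all genes). Cd34 (0.20 ± 0.039, adjusted p = 3.9e-05), Cd93 (0.17 ± 0.043, 0.00173) and Myct1 (0.44 ± 0.13, 0.0152) were higher and Podxl (-0.06 ± 0.017, 0.0108) lower. The call of Myct1 with BMP2 ended without BMP2 replicate 1 (adjusted p = 0.260) or vehicle replicate 3 (0.103) and with DESeq2 (0.0826). That of Podxl ended without BMP2 replicate 3 (0.0502), vehicle replicate 1 (0.0504) or vehicle replicate 2 (0.0523). Plvap, the diaphragm protein of fenestrated endothelium, named after its values were seen, also fell with BMP2 from 0.792 ± 0.225 to 0.392 ± 0.117 CPM (adjusted p = 0.0195, and 0.0894, 0.107 and 0.196 without BMP2 replicate 2, BMP2 replicate 3 or vehicle replicate 3).

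Of 16 endothelial transcription factor genes, 5 rose with E2, 1 fell and 10 did not pass (37.5% called beside 32.3% of all genes). Sox18 was 1.95-fold higher (5.05 ± 0.669 against 2.6 ± 0.536 CPM, adjusted p = 7.5e-10), Sox7 1.28-fold higher (adjusted p = 4.9e-04) and Lmo2 1.29-fold higher (adjusted p = 6.1e-04). Ets1, which is also made outside endothelium and was the most abundant of the list in CPM, fell from 159 ± 2.93 to 132 ± 1.49 CPM (log2 fold change -0.27 ± 0.024 SE, adjusted p = 1.1e-19). With BMP2, 3 rose and 0 fell (18.8% called beside 13.7% of all genes). They were Epas1, which encodes HIF-2α (0.37 ± 0.074, adjusted p = 5.5e-05), Klf4 (0.42 ± 0.096, 5.2e-04) and Sox7 (0.31 ± 0.086, 0.00548). Sox7 lost that call without BMP2 replicate 1 (adjusted p = 0.282) and with DESeq2 (0.0504).

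Arterial and venous genes went both ways with E2, with 4 of 14 higher, 3 lower and 7 not called (50% called beside 32.3% of all genes). Efnb2, the ephrin that marks arteries and is also found in other cells, fell from 60.2 ± 1.40 to 42.0 ± 1.11 CPM (log2 fold change -0.52 ± 0.037 SE, adjusted p = 2.3e-26), and its venous receptor Ephb4 fell by 0.13 on the log2 scale (adjusted p = 1.6e-05). Jag1, a Notch ligand, fell as well (-0.23 ± 0.072, adjusted p = 0.00933), though not without E2 replicate 3 (0.100) or vehicle replicate 3 (0.0559). Hey1, a Notch target, rose from 16.9 ± 0.662 to 22.6 ± 1.12 CPM (0.42 ± 0.058, adjusted p = 3.0e-10), and Cxcr4, a chemokine receptor, 1.21-fold (adjusted p = 2.1e-04). With BMP2 only Jag1 was called among the 14 (7.14% beside 13.7% of all genes). It was lower (-0.25 ± 0.071, adjusted p = 0.00884, and 0.0555 without vehicle replicate 3).

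Of the 5 lymphatic endothelial genes, Ccl21a had 0 counts in all 9 libraries and was not tested. Prox1, the transcription factor that defines lymphatic endothelium, and Lyve1 were low and not called in any comparison. Pdpn (log2 fold change 0.19 ± 0.033 SE, adjusted p = 3.5e-07) and Reln (0.44 ± 0.041, 1.3e-18), which other cells also make, rose with E2. With BMP2, Reln rose (0.29 ± 0.041, adjusted p = 3.2e-09) and Pdpn fell (-0.15 ± 0.033, adjusted p = 4.7e-04). Each treatment had 50% of the 4 tested genes called, beside 32.3% of all genes with E2 and 13.7% with BMP2.

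Of 7 BMP-responsive genes known in endothelium and in other cells, 3 rose and 2 fell with E2, and 2 rose with BMP2. The share called was 71.4% with E2 beside 32.3% of all genes, and 28.6% with BMP2 beside 13.7%. Id1 was the clearest, at 151 ± 2.18 CPM with vehicle, 175 ± 3.80 with BMP2 and 199 ± 5.71 with E2. It was 1.14-fold lower with BMP2 than with E2 (log2 fold change -0.18 ± 0.023 SE, adjusted p = 7.0e-12). Id3 rose with both treatments (0.13 ± 0.028 with BMP2, adjusted p = 1.6e-04, and 0.13 ± 0.029 with E2, adjusted p = 1.7e-04). Id2 fell slightly with E2 (-0.09 ± 0.026, adjusted p = 0.00482), a call that ended without vehicle replicate 1 (0.0712). Smad6, an inhibitor of BMP signalling, rose with E2 (0.21 ± 0.071, adjusted p = 0.0168) although its groups overlapped. Its call ended with DESeq2 (0.0883) and without vehicle replicate 3 (0.134) or E2 replicate 3 (0.398).

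Over the 6 lists of ligands, receptors, surface genes, transcription factors, arterial and venous genes and lymphatic genes, 76 genes were tested. With E2, 28 were higher, 8 lower and 40 not called, so 47.4% were called beside 32.3% of all genes, and their median log2 fold change was 0.16. With BMP2, 12 were higher and 5 lower (22.4% beside 13.7%), with a median of 0.085. In BMP2 against E2, 8 were higher and 22 lower (39.5% beside 28.2%), with a median of -0.068. The lists were chosen with earlier results of these data known, so these shares are a description and no independent support.

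**Figure D5:**
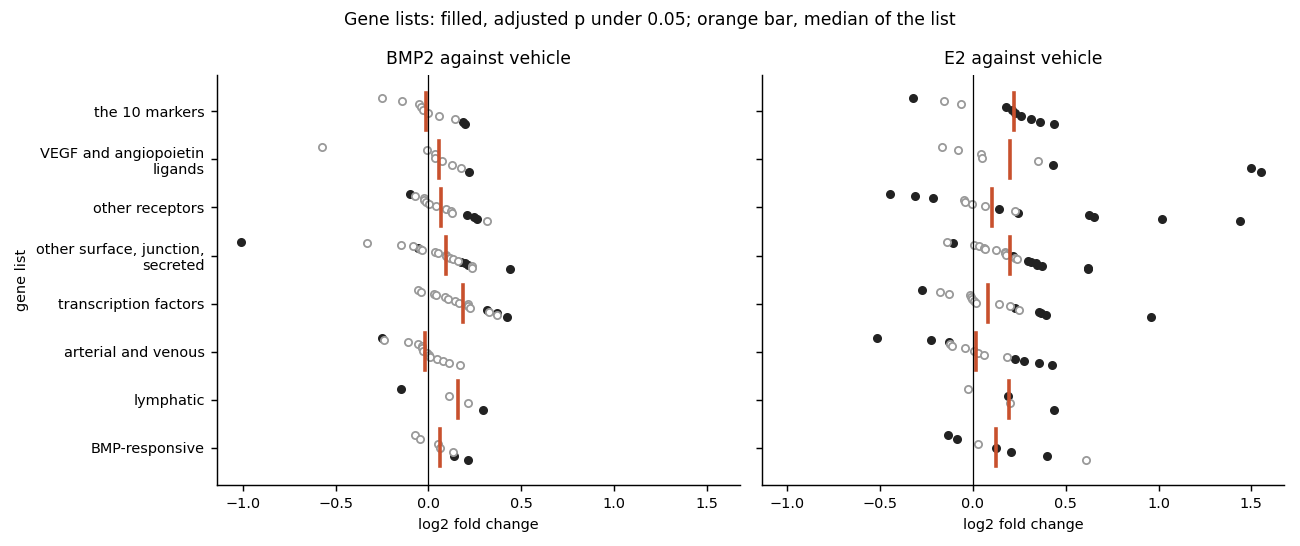
Log2 fold change of the 10 markers and of the genes of 7 further lists (x axis, shared scale) with BMP2 and with E2 against vehicle, filled where called, with the list median in orange. With E2 the ligand list reaches 1.55 (Angpt1) and the receptor list 1.44 (Ptprb), while Kdr is the leftmost of the 10 markers at -0.32.

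Markers of other cells also moved, and their part in the results above was not tested. The 6 platelet and megakaryocyte markers, cells that also carry Pecam1 and Esam, summed to 3.00 to 4.25 CPM (vehicle), 4.47 to 5.18 CPM (BMP2) and 3.05 to 3.76 CPM (E2), and 0 of the 3 tested were called with E2. With BMP2 1 was called, Ppbp at 0.725 ± 0.120 against 0.0806 ± 0.0593 CPM. All 10 macrophage markers had log2 fold changes below 0 with E2 and 6 were called lower, with sums of 140 to 144 CPM (vehicle), 134 to 137 CPM (BMP2) and 120 to 123 CPM (E2), and 0 were called with BMP2. Erythroid markers moved upward, 4 of 6 with E2 and 2 of 6 with BMP2, with sums of 20.7 to 22.6 CPM (vehicle), 27.2 to 28.2 CPM (BMP2) and 32.3 to 35.5 CPM (E2). The shares called with E2 were 0% (platelet), 60% (macrophage) and 66.7% (erythroid), beside 32.3% of all genes. For BMP2 they were 33.3%, 0% and 33.3%, beside 13.7%.

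Of 10 pericyte and smooth muscle markers, which belong to the cells that wrap vessels, 3 rose with E2 and 1 fell (40% called beside 32.3% of all genes). The sums were 459 to 472 CPM (vehicle), 423 to 426 CPM (BMP2) and 611 to 625 CPM (E2), of which Myh11 (202 ± 2.80 against 59.6 ± 0.689 CPM) made up most of the rise. Abcc9 rose 1.70-fold (adjusted p = 4.2e-27) and Kcnj8 1.52-fold (adjusted p = 7.7e-09, named after its values were seen), both subunits of a potassium channel of pericytes. Pdgfrb, a defining receptor of pericytes, stood at 54.9 to 55.7 CPM with E2 and 53.5 to 58.9 with vehicle. With BMP2, 0 of the 10 rose and 3 fell (30% called beside 13.7% of all genes).

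All 6 mesothelial and surface epithelial markers fell with both treatments, with sums of 604 to 629 CPM (vehicle), 530 to 542 CPM (BMP2) and 415 to 423 CPM (E2). Of 6 stromal markers, 3 rose and 3 fell with E2, and 2 fell with BMP2 (sums of 810 to 836, 789 to 797 and 715 to 725 CPM with vehicle, BMP2 and E2). The stromal calls with BMP2 were Tcf21 (adjusted p = 0.0487) and Col1a1 (0.0315), whose groups overlapped. They ended in 10 and 4 of 13 alternatives, with DESeq2 among them (0.15 and 0.315). Of 6 pregranulosa markers, 1 rose and 2 fell with E2, while 3 rose and 1 fell with BMP2 (sums of 1700 to 1770, 1760 to 1760 and 1520 to 1540 CPM). Of 6 germ cell markers, 3 rose and 1 fell with E2 and 3 rose with BMP2 (sums of 1040 to 1110, 1110 to 1140 and 1130 to 1130 CPM). The shares called with E2 were 100% (mesothelial), 100% (stromal), 50% (pregranulosa) and 66.7% (germ cell), beside 32.3% of all genes. For BMP2 they were 100%, 33.3%, 66.7% and 50%, beside 13.7%.

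The 5 genes whose profile over the 9 libraries was most like the mean of the 10 markers, of 14381 with a mean of at least 1 CPM, were Jam3 (Pearson r = 0.988), Ephx1 (0.984), Bcor (0.981), C2cd3 (0.981) and Cryge (0.979). Jam3, a junctional adhesion molecule, stood at 61.9 CPM with vehicle, 62.0 with BMP2 and 68.0 with E2. Because Kdr ran against the rest, its own nearest genes were looked up after its values were seen. They were Me1 (r = 0.992), Pkia (0.989), Farp1 (0.984), Akap13 (0.984) and Gli2 (0.982). None of them is in the endothelial lists used here, and neither is any of the 5 genes nearest the mean of the markers. Me1, an enzyme that makes NADPH, stood at 111 CPM with vehicle, 109 with BMP2 and 91.1 with E2, close to Kdr at 110, 106 and 87.9 CPM. These correlations share the same 9 libraries and 3 treatments and are given as a description.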

How the data were processed

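Each library has a deposited table of raw counts, the number of reads given to each gene. Per the submitters' processing notes, TopHat2, HTSeq and DESeq2 were used with the genome build mm10, while their versions, the annotation and the strand setting were not found (not given in the sources used here). Per the labels' protocols, RNA with an integrity number over 9 went into Illumina TruSeq v2 libraries, a kit that does not mark strand, so reads of overlapping genes on opposite strands cannot be told apart. Rows for reads given to no gene (38.2% to 39.7% of a library) were left out. Groups were read from title prefixes (B2 as BMP2, C as vehicle, E2 as estradiol).

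The test was edgeR 4.0.16 (R 4.3.3): filterByExpr (minimum count 10, minimum total 15), TMM, 1 robust quasi-likelihood fit with a mean per group over 9 libraries, and Benjamini-Hochberg adjustment over 16360 genes. A standard error is the size of the log2 change over the root of its F statistic, and 95% intervals rest on that error. The code was run on simulated counts with known changes, as a check of the code whose outcome is not used as support here. Exon lengths, positions and overlaps are those of GENCODE vM21, built on GRCm38 (mm10).

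The 10 genes and the 15 further lists were chosen with earlier results of these data known. The 10 genes, Vegfa, Angpt1 and Angpt2 are always named, then up to 4 called genes per list and comparison by p (2 for other cell types), and 5 nearest genes. Alternatives were DESeq2 1.42.0, median-ratio size factors, no low-count filter, a mean CPM of at least 1, only the groups compared, the replicate number as a block, each library left out, and an adjusted p under 0.01. An offset that takes out trends with GC content and length, fitted per library by splines over 93.61% of tested genes, was chosen after seeing the data.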

Additional observations from a re-analysis of the deposited data

How the results depend on the processing

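With E2, the rises of Pecam1, Emcn, Cdh5 and Tie1 and the fall of Kdr kept direction and call under all 13 alternatives at an adjusted p under 0.05. Without 1 library, 5 to 6 of the 10 markers were higher with E2 and 1 lower. With BMP2, 0 to 2 were higher and 0 lower, and 1 was higher with DESeq2, with the GC and length trend removed and at an adjusted p under 0.01. The GC and length offset also made 1 marker lower with BMP2 (Kdr, log2 fold change -0.07, adjusted p = 0.0498). In BMP2 against E2, leaving out 1 library gave 1 higher and 3 to 4 lower, and 2 were lower with DESeq2 and at an adjusted p under 0.01. Over all genes, BMP2 against vehicle gave 727 higher and 687 lower with DESeq2, 662 and 656 at an adjusted p under 0.01, and 804 to 1089 and 824 to 1052 without 1 library, beside 1119 and 1120. The other comparisons gave 2218 to 2529 higher and 2271 to 2516 lower (E2) and 1962 to 2060 and 1976 to 2074 (BMP2 against E2) without 1 library.

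Values near 0 changed sign, none of them called: with BMP2, Pecam1 (0.01 without BMP2 replicate 1 or vehicle replicate 2), Emcn (0.03 without vehicle replicate 1), Esam (0.04 without BMP2 replicate 3, 0.00 without vehicle replicate 1) and Angpt1 (0.00, -0.02 and -0.04 without BMP2 replicate 1, vehicle replicate 1 or vehicle replicate 2, in a range up to 0.17), and, in BMP2 against E2, Eng (0.00 without BMP2 replicate 1, -0.03 without E2 replicate 1, in a range up to 0.07, and -0.03 with the GC and length offset). The difference in the log2 ratio of Kdr to Flt1 ran from -0.30 to -0.19 (E2), 0.12 to 0.27 (BMP2) and 0.37 to 0.51 (BMP2 against E2) without 1 library, and that of Tek to Tie1 from -0.14 to -0.06, from -0.20 to -0.05 and from -0.10 to 0.05, turning sign without BMP2 replicate 2. The causes were not tested.

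The labels do not say what the replicate numbers stand for, so they were not taken to pair libraries. Deviations of same-numbered libraries from their group means had correlations of -0.031 to 0.027. No values of different-numbered libraries were set beside these. With the replicate block, the markers gave 2 higher and 0 lower (BMP2), 7 higher and 1 lower (E2) and 1 higher and 4 lower (BMP2 against E2), the same counts as without it. Over all genes, the block called more in each comparison. With BMP2 it gave 1252 higher and 1260 lower, beside 1119 and 1120. With E2 it gave 2705 and 2807, beside 2577 and 2701. In BMP2 against E2 it gave 2442 and 2433, beside 2310 and 2297. Whether the numbers mark libraries handled together was not tested.

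Among the 10 markers, Flt1 had the fewest counts, 106 to 134 per library.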
